A study of Mus musculus with 13 samples.

Results

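Potassium channel genes were taken as all genes whose symbol in the array's platform annotation starts with Kcn, with 1 such gene not analysed here. They came to 83 genes on 166 probe sets, of 18193 genes with a symbol and 45037 probe sets that are not controls. Of these, 52 genes passed a filter on dim values, which asked for an intensity above the array's own median in at least 3 of 13 arrays. The other 31 genes were not tested and are accounted for further on. The tumours were 6 primary medulloblastomas (MB), cancers of the hindbrain, from mice labelled Ptch1(+/-). Ptch1 is the receptor that restrains the hedgehog pathway, and the labels give its inactivation as the origin of the tumours. There were 3 wild-type samples of granule neuron precursor cells from the cerebellum at postnatal day 7 (GNPC), and 4 wild-type samples of dorsal brainstem from E16.5 embryos (DBS). All 13 samples were untreated tissue, each from a different mouse, with 1 array each. The labels give neither the strain and sex of the mice nor the age of the tumour mice, and the tissue of each normal group goes with its age. How the precursor cells were obtained is not in the labels, whose protocol describes homogenised tissue.

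Potassium channels set the resting potential of a neuron and end each action potential. Voltage-gated alpha subunits open on depolarisation and are shaped by accessory subunits, calcium- and sodium-activated channels follow internal ions, and two-pore and inward rectifier channels pass current near rest. Granule neurons gain voltage-gated currents as they mature, whereas glia are best known for inward rectifiers that buffer potassium.

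Array medians ran from 91.3 to 108.7 units of intensity in tumours, from 113.8 to 117.5 in GNPC and from 103.6 to 108.1 in DBS. Precision is limited by there being 13 arrays. Ptch1 itself lay between 3453.7 and 11575 in the tumours, between 5563.3 and 6972.4 in GNPC and between 5569.3 and 6133.5 in DBS. It was not called in either comparison of the tumours (adjusted p = 0.509 and 0.257, limma), and a heterozygous allele need not show in this probe set. Atoh1, the defining factor of granule precursors, ran from 6383.3 to 11733.4 in tumours, from 825.7 to 1251.8 in GNPC and from 56.1 to 166.5 in DBS. Hoxa5, a brainstem marker, did not exceed 17.1 in tumours or 9.2 in GNPC and lay between 5534.1 and 8334.3 in DBS. The GNPC arrays also carried markers of other cerebellar cells, such as the Purkinje marker Calb1, which lay between 32.5 and 3812.1 in tumours and between 13398.9 and 16138.8 in GNPC. The log2 ratio of 3' to 5' control probe sets, a measure of RNA quality, averaged 1.40 ± 0.10 in tumours and 1.16 ± 0.05 in GNPC (SD, n = 6 and 3; difference 0.23, two-sided exact permutation p = 0.0119, the smallest this design allows, and 0.0357 after adjustment over 3 comparisons). It averaged 1.75 ± 0.50 in DBS (n = 4; exact permutation p = 0.0952 for tumours against DBS), and DBS 2 stood apart, at 2.43, with 1.23 to 1.7 in the other DBS samples. Its part in the differences below was not tested.

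Of 20 voltage-gated alpha subunit genes past the filter, 12 were lower in the tumours than in GNPC and 15 lower than in DBS. Of 9 accessory subunit genes 6 and 5 were lower, and of 5 two-pore genes 4 and 3, in the same order. Of 9 genes of calcium- or sodium-activated channels, with the Slo relative Kcnu1 among them, 6 and 7 were lower. Most inward rectifier genes were not called. A gene was called when its Benjamini-Hochberg adjusted p from limma, over all 12270 genes tested, was under 0.05 and its group means differed at least 2-fold on the scale log2(intensity + 18), which understates the fold of dim genes. Between tumours and GNPC, 1 of the 52 genes was called higher and 29 lower, or 57.7% called, beside 20.8% of all genes tested. The 29 lower genes were 55.8% of the 52, against 14.2% of all genes, 6.59% of all genes were called higher, and the median log2 difference was -1.22, against -0.03 over all genes. Between tumours and DBS, 3 genes were called higher and 31 lower, or 65.4% called, beside 36.3% of all genes tested. The lower genes were 59.6% of the 52, against 20.9% of all genes, 15.5% of all genes were called higher, and the median was -1.54, against 0 over all genes.

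Genes at least 4-fold lower and called numbered 12 against GNPC and 14 against DBS, beside 4.16% and 9.31% of all genes. The values of the 6 tumours did not overlap those of GNPC for 28 genes, 27 of them lower, beside 44.9% of all genes in either direction, with 24% of all genes lower and 21% higher. They did not overlap those of DBS for 33 genes, 31 of them lower, beside 56.1% of all genes, with 28.9% lower and 27.2% higher. By adjusted p alone, without the 2-fold minimum, 34 of the 52 passed against GNPC and 40 against DBS, beside 49.4% and 70.4% of all genes. Both comparisons use the same tumour arrays, so their results are not independent of each other. Of the 52 genes, 17 exceeded the array median in all 13 arrays and 8 exceeded it in no tumour (Kcna4, Kcna6, Kcnc2, Kcnd1, Kcne2, Kcnf1, Kcnip2 and Kcnk3). Those 8 entered only through normal tissue, so that their counts say little of how potassium channels in general moved. Over genes above the array median in at least 1 array of both groups compared, 0 were higher and 23 of 38 lower than in GNPC (60.5%), beside 5.84% higher and 12.2% lower of all genes so restricted, with a median of -1.22. Against DBS, 2 were higher and 23 of 42 lower (54.8%), beside 13.9% higher and 17.9% lower, with a median of -1.41. In bulk samples such as these, fewer cells of a type and less RNA per cell cannot be told apart.

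**Figure D1:**
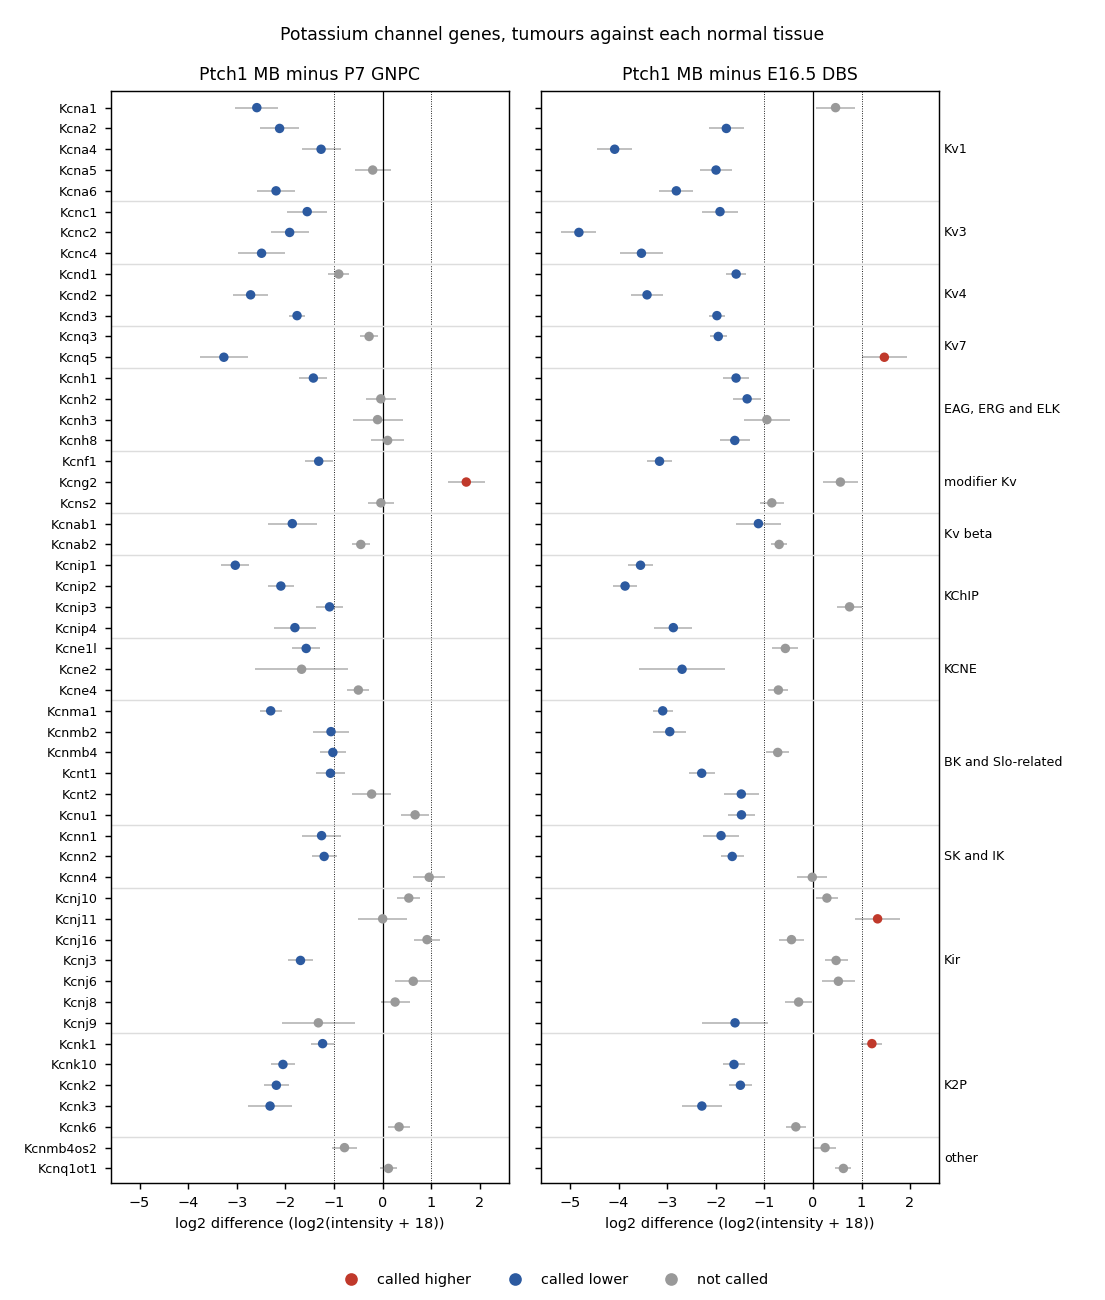
Log2 difference of each of the 52 potassium channel genes, grouped by family down the page, between tumours and GNPC (left) and between tumours and DBS (right), on the log2(intensity + 18) scale. Red points are called higher, blue points called lower and grey points not called; bars show the limma standard error. Blue points, 29 against GNPC and 31 against DBS, outnumber the 1 and 3 red ones.

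Marker lists of neurons, of most glia and of supporting tissue also held genes lower in the same tumour arrays. Of 13 markers of neuronal maturation, 10 were called lower in tumours than in GNPC and 12 lower than in DBS. Their summed intensity ran from 15473.4 to 32899.5 in tumours, from 60367.9 to 68237.9 in GNPC and from 103481.8 to 113386.1 in DBS. Of 12 Purkinje cell markers, 10 were called lower in tumours than in GNPC, with sums of 5071.8 to 25365.3 in tumours and 56670.7 to 68407 in GNPC. Of 8 markers of cerebellar interneurons, 7 were lower than in GNPC, with sums of 556.2 to 4296 in tumours and 13031.6 to 14406.4 in GNPC. Gad1, counted in both of these lists, had 7643.2 to 9017.2 in GNPC. Slc6a5 and Ptf1a did not exceed 73.5 and 45.5 in tumours, nor the Purkinje marker Lhx5 36.8, below the lowest tumour array median, 91.3. Slc6a5, Ptf1a and Lhx5 thus passed the filter only through normal tissue, so that their lower calls say little. Of 9 markers of brainstem neurons, 9 were lower in tumours than in DBS, with sums of 1277 to 3875.6 in tumours and 31887.5 to 42748.2 in DBS. Among them, Hoxa5, Hoxb5, Hoxc4 and Prph did not exceed the array median in any tumour or GNPC sample. Those markers passed the filter only through DBS, so that their lower calls say little. In tumours against GNPC, 1 of the 9 was lower. Against DBS, 3 Purkinje markers were higher in tumours and 6 lower, and 7 of the 8 interneuron markers were lower. Of those 7, Slc6a5 and Sorcs3 (at most 69.9) exceeded the array median in no tumour. Of 9 markers of differentiated granule neurons, 6 were lower in tumours than in GNPC, and against DBS 3 were higher and 3 lower. Sums of these 9 ran from 11526.2 to 25528.2 in tumours, from 36793.8 to 39526.2 in GNPC and from 23553.5 to 26551.4 in DBS. Of the markers of other cells, 8 of 11 for astrocytes and Bergmann glia were lower in tumours than in GNPC, with sums of 21828.2 to 45536.5 in tumours and 68097.2 to 72817.9 in GNPC. So were 6 of 11 for oligodendrocytes, with sums of 12817.1 to 24492.8 in tumours and 25454.2 to 45934.6 in GNPC. The same held for 7 of 10 for meninges and fibroblasts (2316.1 to 7277.3 in tumours, 12314.8 to 14168.3 in GNPC). Of 8 endothelial markers 4 were lower and 1 higher, and of 10 granule precursor markers 4 were higher than in GNPC and 9 higher than in DBS. No marker was at exactly 0, since the lowest value on any array was 0.1. The part of these cells in the potassium channel differences was not tested.

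The Kv4 family and its KChIP partners carry the fast, transient A-type current of neuronal dendrites, which granule neurons rely on. Of 3 Kv4 genes, 2 were called lower in tumours than in GNPC and 3 lower than in DBS, and all 4 KChIP genes were lower than in GNPC and 3 of them lower than in DBS. Kcnd2, which encodes a Kv4 pore subunit, had intensities of 301.9 at the lowest, 479.2 at the median and 1403.1 at the highest of the 6 tumours. It had 3792.8, 3272.2 and 3406.4 in the GNPC samples and 5790.8, 6623.3, 4150.6 and 6460.4 in the DBS samples. All 6 tumours lay below every normal sample, and the highest was tumour 2. Kcnd2 averaged 601 ± 417 in tumours, 3490 ± 270 in GNPC and 5756 ± 1129 in DBS (SD, n = 6, 3 and 4). It was 6.57-fold lower in tumours than in GNPC (log2 difference -2.72 ± 0.36 SE, adjusted p = 3.42e-05) and 10.7-fold lower than in DBS (-3.41 ± 0.33, adjusted p = 3.36e-07). Its other 2 probe sets past the filter gave -2.80 and -2.79 against GNPC and -3.59 and -3.53 against DBS.

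Kcnip1, a calcium-binding KChIP that raises the surface level of Kv4 channels, had 47.8, 99.8 and 160.8 as the lowest, median and highest tumour value. In GNPC it had 1278.4, 803.6 and 861.7, and in DBS 1307.5, 1006.5, 1976.3 and 1397.7. Every tumour lay far below every normal sample, and the differences were -3.03 ± 0.29 against GNPC and -3.55 ± 0.27 against DBS (adjusted p = 2.17e-06 and 2.05e-08). Kcnip2, the KChIP best known from the heart, had 9.4, 28.95 and 41.3 in tumours, against 288.3, 154.7 and 123.1 in GNPC and 726.1, 588.9, 711.1 and 584 in DBS. The groups did not overlap, with GNPC between tumours and DBS, and the differences were -2.09 ± 0.27 against GNPC and -3.87 ± 0.25 against DBS (adjusted p = 2.41e-05 and 3.96e-09). Kcnip4, a KChIP that slows Kv4 inactivation, had 32.2, 85.4 and 292.8 in tumours, against 439.6, 353.2 and 278.2 in GNPC and 666.9, 754.2, 799.4 and 811.9 in DBS. Tumour 2, the highest, overlapped GNPC 3, and no tumour overlapped DBS. Its differences were -1.81 ± 0.43 against GNPC and -2.87 ± 0.39 against DBS (adjusted p = 0.00281 and 1.03e-05).

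Kcnd3, another Kv4 pore subunit, was lower, at -1.76 against GNPC and -1.98 against DBS (adjusted p = 2.77e-06 and 4.45e-08), with tumour values of 466.8 to 1050.9 and normal values of 2361.3 to 2845.6. Kcnd1, the third, was called lower than in DBS alone (-1.58, adjusted p = 4.93e-06), and its difference from GNPC, -0.90, fell short of 2-fold, with -0.29 on its second probe set. Kcnip3, which also acts as a calcium-dependent transcriptional repressor, was called lower than in GNPC (-1.09, adjusted p = 0.00547), whereas its difference from DBS was 0.75. Its second probe set gave 0.06 against GNPC and 1.08 against DBS. The call against GNPC was lost without GNPC 1 (-0.90) or with arrays scaled to the same median (-0.85).

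The promoters of Kcnd2 and Kcnip2 are shown because they belong to a pore subunit and a partner that were each lower in every tumour than in every normal sample. The windows run from 250 bases before to 50 bases after the annotated start in RefSeq, build GRCm38.p6, written 5′ to 3′ on the gene's strand. Capitals mark matches to the GC box GGGCGG on either strand and, in Kcnip2, 1 match of the Gli motif core ACCACCCA read on the opposite strand. The windows are chr6:21215096-21215395 on the plus strand for Kcnd2 and chr19:45816014-45816313 on the minus strand for Kcnip2.
Kcnd2: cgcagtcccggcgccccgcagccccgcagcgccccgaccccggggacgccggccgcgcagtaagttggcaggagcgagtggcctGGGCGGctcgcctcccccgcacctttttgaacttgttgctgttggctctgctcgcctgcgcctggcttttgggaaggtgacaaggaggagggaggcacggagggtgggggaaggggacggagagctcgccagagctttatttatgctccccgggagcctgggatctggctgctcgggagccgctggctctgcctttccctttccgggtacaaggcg
Kcnip2: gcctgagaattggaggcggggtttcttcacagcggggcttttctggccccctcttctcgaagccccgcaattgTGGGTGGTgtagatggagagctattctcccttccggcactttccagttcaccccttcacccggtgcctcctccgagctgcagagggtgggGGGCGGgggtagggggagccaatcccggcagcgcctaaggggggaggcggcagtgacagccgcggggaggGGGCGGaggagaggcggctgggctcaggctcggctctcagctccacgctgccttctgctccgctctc
They were 68.7% and 67.0% G and C, against a median of 52.7% over all windows. Of the 52 genes, 40 had a window in the table, 63 windows in all. The GC box was found in 28 of those 63 (44.4%), against 35.7% of all 32851 windows, and the Gli core in 1 of 63 (1.59%), against 1.48%. Neither half-site of the neuronal repressor REST, TTCAGCACC and GGACAGCGC, was found in the 63, against 0.371% and 0.405% of all windows. These matches are letters in a window and say nothing of whether a factor bound there.

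The Kv1 family forms channels of axons and terminals that hold back repetitive firing. Of 7 genes 5 passed the filter, and 4 were called lower in tumours than in GNPC and 4 lower than in DBS. Kcna1, a low-threshold Kv1 subunit, had 145.2 at the lowest, 402.45 at the median and 887.2 at the highest of the tumours, against 2539.7, 2057.5 and 2224.7 in GNPC and 265.6, 199.8, 308.3 and 264.7 in DBS. The tumours lay below GNPC and overlapped DBS. Kcna1 was 6.02-fold lower in tumours than in GNPC (-2.59 ± 0.45, adjusted p = 0.000265) and its difference from DBS, 0.47 ± 0.41, was not called. GNPC exceeded DBS by 3.06 ± 0.48 (adjusted p = 0.000158).

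Kcna2, a frequent partner of Kcna1, had 172.5, 294.25 and 881.3 in tumours, against 1852.8, 1648.2 and 1717.1 in GNPC and 1392.7, 1261, 1272.7 and 1578.3 in DBS. All tumours lay below all normal samples, with differences of -2.12 ± 0.40 against GNPC and -1.78 ± 0.36 against DBS (adjusted p = 0.000502 and 0.000452). Kcna4, which gives a rapidly inactivating current, had 9.2, 13.4 and 16.9 in tumours, against 156.7, 49.4 and 18.8 in GNPC and 606.4, 735.2, 590.7 and 262.3 in DBS. Every tumour value was under the 18 units added before the log, so the fold against them is no measured ratio. The differences were -1.27 ± 0.40 against GNPC, lost without GNPC 1 (-0.66, adjusted p = 0.152), and -4.08 ± 0.37 against DBS (adjusted p = 0.0169 and 1.38e-07). Its second probe set gave -0.91, not called, against GNPC and -1.84, called, against DBS.

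Kcna6, another axonal Kv1 subunit, had 9.4, 43.75 and 91.9 in tumours, against 309.9, 203.4 and 229.1 in GNPC and 310.9, 329.4, 510.2 and 414.2 in DBS. The tumours did not overlap either tissue, and the differences were -2.19 ± 0.38 and -2.81 ± 0.35 (adjusted p = 0.000311 and 4.57e-06). Kcna5 was called lower than in DBS (-1.99, adjusted p = 8.65e-05) and differed from GNPC by -0.20. Of the Kv beta subunits, which bind Kv1 channels in the cell, Kcnab1 was called lower than in GNPC (-1.86, adjusted p = 0.00681). Its call against DBS (-1.12, adjusted p = 0.0402) was lost on leaving out any 1 DBS sample or tumour 1, 3 or 4 (-1.18 to -0.86). Kcnab2 was not called.

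**Figure D2:**
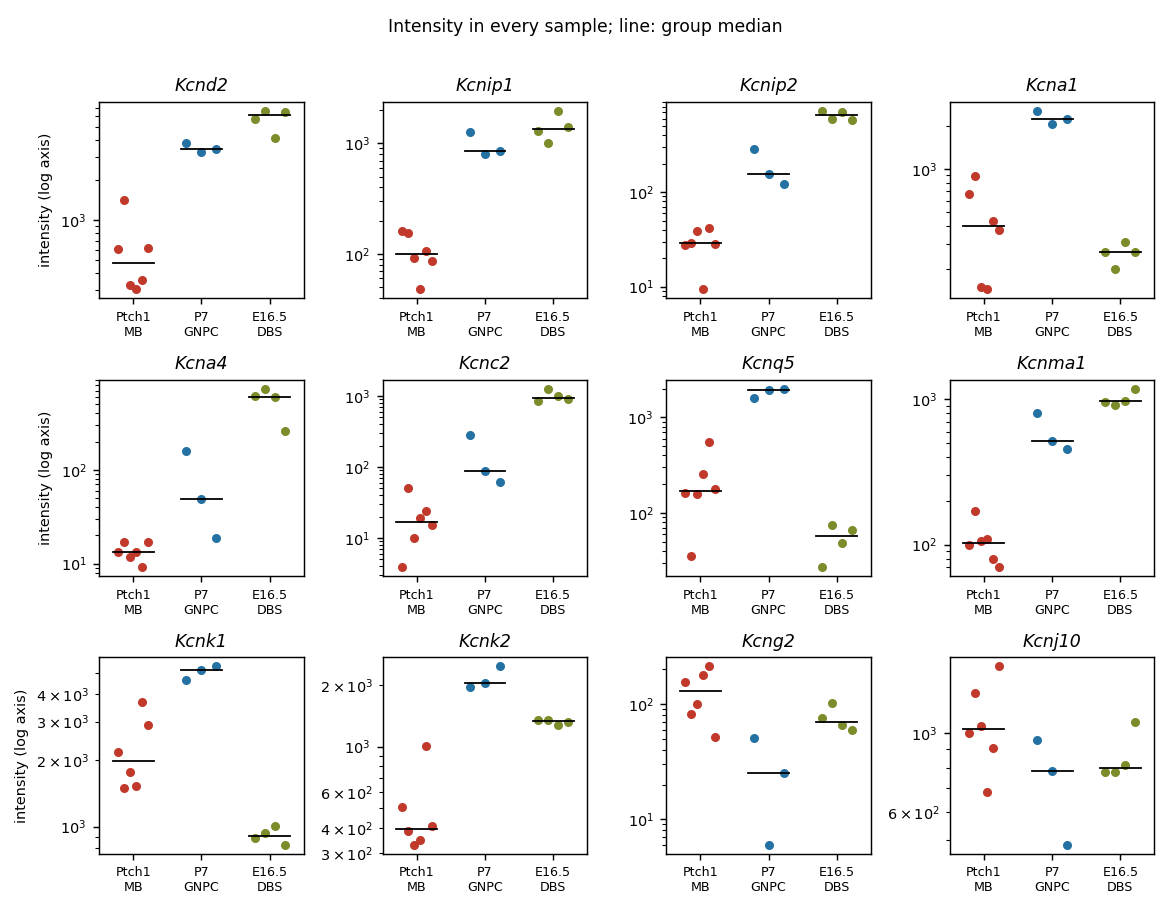
Intensity on a log axis in each tumour, GNPC sample and DBS sample, from left to right in each panel, for 12 potassium channel genes from several families; each point is 1 sample and the line is the group median. Kcnd2 lies between 301.9 and 1403.1 in tumours and between 3272.2 and 6623.3 in normal samples, whereas Kcna1 lies between 2057.5 and 2539.7 in GNPC and reaches at most 887.2 elsewhere.

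Kv3 channels open at high voltage and close fast, and let cells such as interneurons and auditory brainstem neurons fire at high rates. All 3 genes of the family past the filter were called lower in tumours in both comparisons, Kcnc1 on 1 of its 3 probe sets against DBS. Kcnc2, a Kv3 subunit of fast-spiking interneurons, had 3.9, 17 and 51.2 in tumours, against 284.5, 86.3 and 60.5 in GNPC and 857.5, 1272, 982.7 and 910.4 in DBS. The groups did not overlap, though the highest tumour came near GNPC 3, and the tumour median lay under 18 units. The differences were -1.91 ± 0.39 against GNPC and -4.82 ± 0.36 against DBS (adjusted p = 0.00104 and 2.00e-08), and that of GNPC from DBS was -2.90 ± 0.42. Kcnc4, whose channel inactivates, had 11.7, 66.35 and 144 in tumours, against 536.3, 371.8 and 249.8 in GNPC and 947, 694.3, 882.4 and 624.7 in DBS. The differences were -2.49 ± 0.48 and -3.53 ± 0.43 (adjusted p = 0.000597 and 3.91e-06), with no overlap. Kcnc1 was lower, at -1.55 against GNPC and -1.91 against DBS (adjusted p = 0.0059 and 0.000335), and tumour 2, at 1592.9, came close to the lowest GNPC value, 1616.2. Its other 2 probe sets gave -0.89, not called, and -1.03, called, against GNPC, and -0.56 and -0.62, neither called, against DBS.

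Kv7 channels carry the M-current that muscarinic receptors shut. Kcnq5 had the largest difference from GNPC among the 52 genes. On the probe set with the highest mean it had 35.2, 169.1 and 548.3 in tumours, against 1606.6, 1920.3 and 2010.5 in GNPC and 27.2, 74.2, 48 and 67.1 in DBS. Tumours lay below GNPC and overlapped DBS at their low end. Kcnq5 was 9.63-fold lower than in GNPC (-3.27 ± 0.50, adjusted p = 0.000105), and called higher than in DBS (1.47 ± 0.46, adjusted p = 0.00989). GNPC exceeded DBS by 4.74 ± 0.54 (adjusted p = 9.86e-06). Its other 2 probe sets agreed on the direction against GNPC (-1.71 and -2.12) but were called lower than in DBS (-1.53 and -1.14), and the mean of the 3 gave -0.40 against DBS. The direction against DBS thus depends on the probe set. Kcnq3, the partner that completes the M-channel, was called lower than in DBS (-1.95, adjusted p = 1.46e-07) and not called against GNPC (-0.28).

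**Figure D3:**
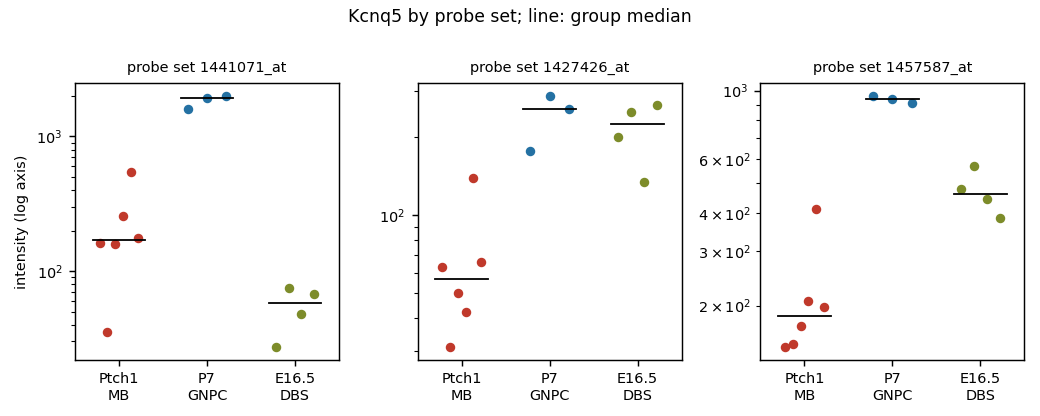
Intensity of Kcnq5 on a log axis by probe set, in tumours, GNPC and DBS from left to right; points are samples and the line is the group median. The tumour median lies above that of DBS on the probe set with the highest mean and below it on the other 2, and 1 tumour lies within the DBS range on each: tumour 2 (35.2) on the first, and tumour 5 on the others (413.1 and 138.6, beside lowest DBS values of 384.4 and 133.7).

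The EAG, ERG and ELK genes encode slowly gated channels. Of 4 past the filter, 1 was lower in tumours than in GNPC (Kcnh1, -1.43, adjusted p = 0.000869) and 3 lower than in DBS (Kcnh1 -1.58, Kcnh2 -1.35 and Kcnh8 -1.61). Kcnh2, the gene of the cardiac ERG channel, differed from GNPC by -0.04. Kcnh3 was not called on the probe set with the highest mean, and another gave -1.47, called, against DBS. Modifier Kv subunits form no channel alone and change the gating of others. Kcnf1, one of them, had 2, 3.5 and 24.3 in tumours, against 47.9, 41.4 and 39.6 in GNPC and 202.9, 134.4, 248.9 and 234 in DBS. It passed the filter through DBS alone, and its tumour values were mostly under 18 units. The differences were -1.32 ± 0.29 and -3.16 ± 0.26 (adjusted p = 0.00168 and 6.52e-08). Kcng2 was the 1 gene called higher in tumours than in GNPC, by 1.72 ± 0.39 (adjusted p = 0.00197), with 51.5 to 212.4 in tumours, 6 to 50.2 in GNPC and 59.8 to 101 in DBS. It exceeded the array median in 4 tumours and in no GNPC or DBS sample, so it passed the filter only through the tumours. Its values were dim throughout, its difference from DBS was 0.57 (adjusted p = 0.163), and with 100 units added before the log it was 0.82 and no longer called.

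KCNE subunits are small accessory proteins that slow or silence Kv channels. Kcne1l was called lower than in GNPC (-1.57, adjusted p = 0.000502). Kcne2, which pairs with a Kv7 channel in choroid plexus, the epithelium that makes cerebrospinal fluid, had 1.1, 2.35 and 20.8 in tumours, against 1.8, 693.9 and 12.9 in GNPC and 544.9, 25.4, 58.1 and 287.2 in DBS. One GNPC sample and 2 DBS samples held most of its signal. The summed choroid plexus markers ran from 1386.3 to 12455.5 in tumours, against 3024.8, 31190.2 and 1815.6 in the GNPC samples and 30012.4, 896.7, 15028.3 and 29636.6 in the DBS samples, in order of number. The samples high in Kcne2, GNPC 2 and DBS 1 and 4, were also the highest in these markers. The part of choroid plexus in the Kcne2 values was not tested. Kcne2 was called lower than in DBS (-2.69 ± 0.88, adjusted p = 0.0131), a call lost without DBS 1 (-2.07, adjusted p = 0.0595), and it was not called against GNPC (-1.67 ± 0.96, adjusted p = 0.165).

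Calcium- and sodium-activated channels couple firing to calcium entry or sodium load. Of 9 genes past the filter, with the Slo relative Kcnu1 among them, 6 were lower in tumours than in GNPC and 7 lower than in DBS. With arrays scaled to the same median, Kcnmb2 (-0.87), Kcnmb4 (-0.78), Kcnt1 (-0.87) and Kcnn2 (-0.97) were no longer called against GNPC. Kcnma1, the pore of the large-conductance BK channel, had 70.2, 103.35 and 169.8 in tumours, against 803.1, 517.4 and 456.9 in GNPC and 962.5, 920.3, 975.8 and 1186.8 in DBS. No tumour overlapped a normal sample, and the differences were -2.30 ± 0.23 against GNPC and -3.09 ± 0.21 against DBS (adjusted p = 2.61e-06 and 6.50e-09). Its other 4 probe sets gave -1.95 to -0.80 against GNPC, 2 of them not called, and -2.67 to -1.31 against DBS.

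Kcnmb2, a BK beta subunit that makes the channel inactivate, had 25.6, 37.75 and 130.5 in tumours, against 101.6, 172.3 and 114 in GNPC and 584.4, 518.1, 682.1 and 337.6 in DBS. Tumour 2 overlapped GNPC, and none overlapped DBS. The difference from DBS was -2.95 ± 0.34 (adjusted p = 1.94e-06). That from GNPC, -1.06 ± 0.37 (adjusted p = 0.0277), just passed 2-fold and was lost without GNPC 2 (-0.86) or GNPC 3 (adjusted p = 0.0554), or without tumour 3, 5 or 6. Kcnmb4, a neuronal BK beta subunit, was just inside 2-fold against GNPC (-1.02, adjusted p = 0.00474), a call also lost without GNPC 1 (-0.88) or without tumour 2, 3 or 4. Just outside were Kcnn4 (0.96), Kcnj16 (0.91) and Kcnd1 (-0.90).

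Of the sodium-activated pair, Kcnt1 was lower than in GNPC (-1.07, adjusted p = 0.00725, lost without GNPC 1 or tumour 3) and lower than in DBS (-2.29, adjusted p = 2.32e-06), and Kcnt2 lower than in DBS alone (-1.47, adjusted p = 0.0021). The small-conductance channels Kcnn1 and Kcnn2 were lower, at -1.26 and -1.20 against GNPC (adjusted p = 0.018 and 0.00135). The call of Kcnn1 was lost without GNPC 1 (-1.13, adjusted p = 0.0779) or tumour 3 (-0.99) and was absent on its second probe set (-0.80). Against DBS, Kcnn1 and Kcnn2 were lower too, at -1.89 and -1.66 (adjusted p = 0.000315 and 1.53e-05). Kcnn4, the intermediate-conductance channel of immune cells, differed from GNPC by 0.96 (adjusted p = 0.028) and was not called, while 9 of 11 microglia and macrophage markers were called higher in tumours than in GNPC, with sums of 8143.8 to 25122.4 against 5857.4 to 6979. Their part in the Kcnn4 values was not tested. Kcnu1, a Slo channel known from sperm, was called lower than in DBS (-1.47, adjusted p = 0.000194).

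**Figure D4:**
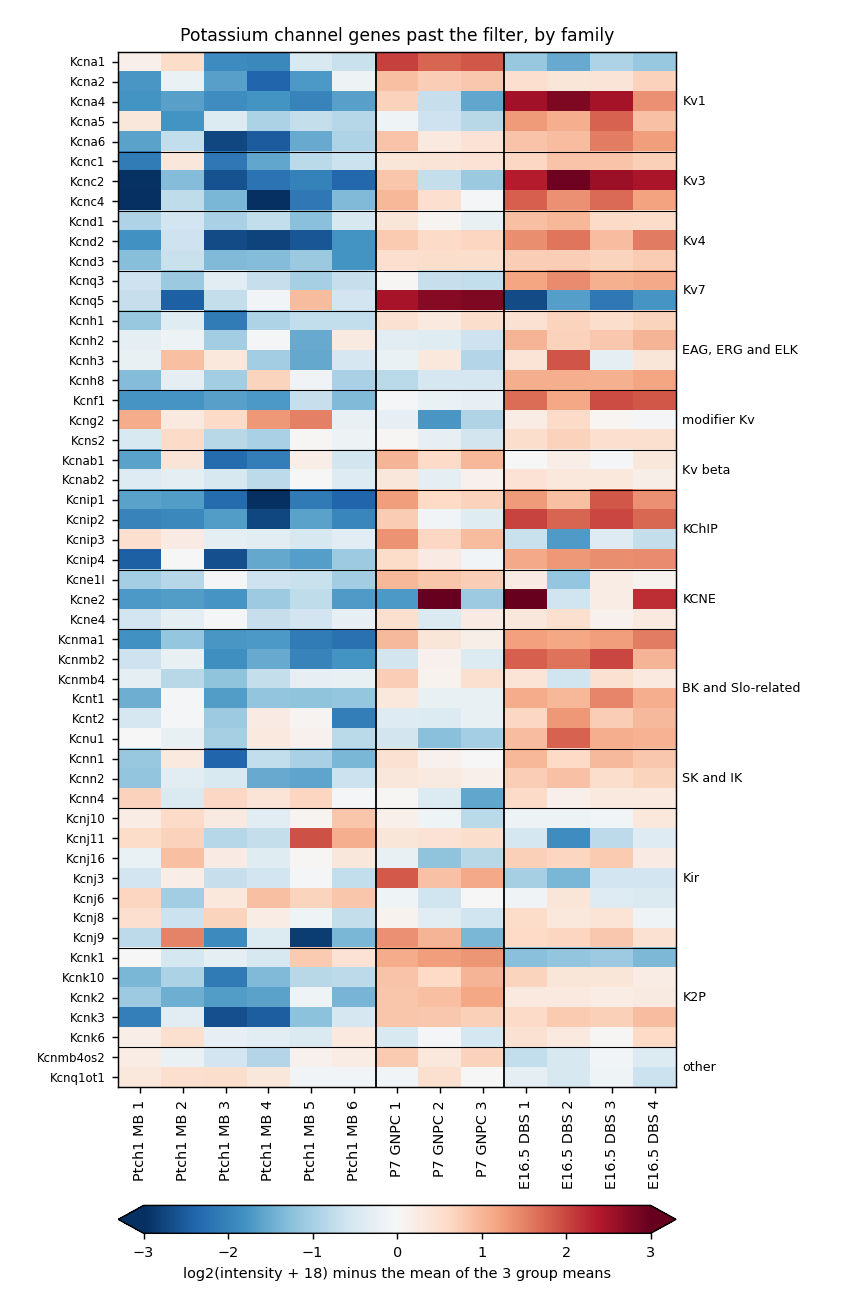
Potassium channel genes past the filter in rows, grouped by family, and the 13 samples in columns, with tumours left of GNPC and DBS. Colour gives log2(intensity + 18) minus the mean of the 3 group means; rows such as Kcnd2, Kcnc2, Kcnc4, Kcnip1 and Kcnip2 are low in the tumour columns, Kcng2 is highest there on average (130, against 27.2 in GNPC and 75.4 in DBS), and tumour 2 is the highest of the tumours for 22 of 52 genes.

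Two-pore domain (K2P) channels pass the leak current at rest. Of 5 past the filter, 4 were called lower in tumours than in GNPC, and against DBS 3 were lower and 1 higher. Kcnk3, an acid-sensitive leak channel, had 4.3, 28.2 and 92.9 in tumours, against 227, 223.2 and 208.6 in GNPC and 187.1, 219.3, 209.5 and 246.1 in DBS. No tumour overlapped either tissue, with differences of -2.32 ± 0.45 and -2.29 ± 0.41 (adjusted p = 0.000635 and 0.000145). Kcnk2, a mechanosensitive leak channel, had 330.2, 396.2 and 1001.9 in tumours, against 1962.9, 2050.7 and 2474.7 in GNPC and 1349, 1349.9, 1272.6 and 1318.7 in DBS. Kcnk10, its close relative, had 86.8, 190.55 and 247.6 in tumours, against 797.2, 672.8 and 907.9 in GNPC and 698.2, 564, 566.1 and 510.6 in DBS. All tumours lay below all normal samples for both genes. Kcnk2 and Kcnk10 differed by -2.19 ± 0.26 and -2.05 ± 0.25 from GNPC (adjusted p = 1.23e-05 and 1.38e-05) and by -1.49 ± 0.24 and -1.63 ± 0.23 from DBS (adjusted p = 4.97e-05 and 1.34e-05).

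Kcnk1, a weakly conducting leak channel, had 1491.2, 1978.25 and 3697.7 in tumours, against 4653.8, 5151.5 and 5360.7 in GNPC and 886.9, 932.7, 1000.9 and 825.9 in DBS. The 3 groups did not overlap, with tumours in between. Kcnk1 was lower than in GNPC (-1.24 ± 0.24, adjusted p = 0.000598) and higher than in DBS (1.21 ± 0.22, adjusted p = 0.000141). With arrays scaled to the same median, the difference from GNPC was -0.99 and no longer called. Its second probe set gave -1.60 against GNPC, called, and 0.92 against DBS, not called. Kcnk6, another leak channel, was not called.

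Inward rectifiers hold the resting potential and, in glia, take up potassium. Of 14 genes 7 passed the filter, and 1 was called in the comparison with GNPC and 2 in that with DBS. Kcnj3, a G-protein-gated subunit, had 317.4, 362.35 and 625.6 in tumours, against 1984, 1019.3 and 1231 in GNPC and 263.6, 201.4, 358 and 359 in DBS. It was lower than in GNPC without overlap (-1.69 ± 0.26, adjusted p = 0.000101) and overlapped DBS (0.48 ± 0.24, adjusted p = 0.0827). Of its other 2 probe sets, 1 gave -1.88, called, and 1 -0.53, not called, against GNPC. Kcnj11, a pore of ATP-sensitive channels, was higher than in DBS (1.33 ± 0.46, adjusted p = 0.0178), with overlapping values of 235.5 to 1682.3 in tumours and 106.8 to 333.1 in DBS, and the call was lost without DBS 2 (1.0, adjusted p = 0.0775), the sample with the highest 3' to 5' ratio. Kcnj9, another G-protein-gated subunit, was called lower than in DBS (-1.60, adjusted p = 0.0475). Its tumour values ran from 4.9 to 447.2, and the call was lost on leaving out any 1 DBS sample, GNPC 2, or tumour 1, 3, 5 or 6 (-1.66 to -1.23). Kcnj10, the main glial inward rectifier, was not called, with 685.4 to 1542.3 in tumours, 485.6 to 959.2 in GNPC and 776.2 to 1076.5 in DBS. Kcnj6 and Kcnj8 were not called in either comparison of the tumours. Kcnj16, another glial inward rectifier, was not called on the probe set with the highest mean (0.91 against GNPC and -0.44 against DBS). It was called higher than in GNPC on its second probe set (1.02, adjusted p = 0.0021), with arrays scaled to the same median (1.12), with quantile normalization (1.08), with a pseudocount of 1 (1.05), and without GNPC 1 (1.18) or tumour 4 (1.02).

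Of the normal tissues, GNPC had 7 genes called higher and 14 lower than DBS, or 40.4% of the 52 called, beside 18.4% of all genes tested, 8.73% higher and 9.68% lower. By adjusted p alone 27 passed, beside 44.1% of all genes. Their values did not overlap for 39 genes, 27 of them lower, beside 55.9% of all genes, 27.3% lower and 28.6% higher. At least 4-fold lower and called were 3 genes, beside 2.44% of all genes. The median log2 difference was -0.58, against 0.04 over all genes. This comparison uses the same normal arrays as the comparisons of the tumours. The largest were Kcnq5 (4.74, on 1 of 3 probe sets), Kcna1 (3.06), Kcnc2 (-2.90), Kcna4 (-2.81), Kcnk1 (2.45) and Kcnj3 (2.17), whose values are given above. Kcnip3 (1.84), Kcnmb4os2 (1.03) and Kcne1l (1.01) were also higher in GNPC, the last lost without DBS 2 (0.67) or GNPC 1 (0.94), and Kcnmb4os2, an opposite-strand transcript, without DBS 1, GNPC 1 or GNPC 3. The lower genes included 4 of 6 BK and Slo-related genes, 2 of 4 EAG, ERG and ELK genes and 2 of 5 Kv1 genes. Of the called genes, Kcna5, Kcnf1, Kcnh8 and Kcnu1 exceeded the array median in no GNPC sample. Kcnq5, on its brightest probe set, did so in no DBS sample, and Kcng2 in neither tissue. Their calls say little of potassium channels in general. Over genes above the array median in both tissues, 6 were higher and 9 of 44 lower (20.5%), with a median of -0.49. All genes so restricted were 7.43% higher and 8.21% lower. Kcnu1 was -2.14, Kcnmb2 -1.88, Kcnf1 -1.84, Kcna5 -1.79, Kcnip2 -1.77, Kcnh8 -1.71, Kcnq3 -1.67, Kcnj16 -1.35, Kcnh2 -1.32 and Kcnt1 -1.22. Kcnt2 (-1.25) and Kcng2 (-1.16) were lost on leaving out any of several samples. Another probe set gave no call for Kcna4 (-0.93), Kcnmb2 (-0.87), Kcnq3 (-0.92), Kcnj16 (-0.49), Kcnt1 (-0.59) and Kcnj3 (0.68). With the mean of its probe sets, Kcnj16 was -0.92 and no longer called.

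The tumours differed more among themselves in these genes than in genes at large. The median SD between tumours over the 52 genes was 0.57 on the log2 scale, against 0.27 over all genes, and it was 0.30 against 0.15 in GNPC and 0.23 against 0.21 in DBS. Tumour 2 was the highest tumour for 22 of 52 genes, or 42.3%, against 21.6% over all genes, and its median deviation from the tumour mean was 0.33. Tumour 3 was the lowest for 14 genes, with a median deviation of -0.27. The widest ranges were those of Kcnj9 (4.34), Kcnq5 (3.41), Kcnj11 (2.75), Kcnab1 (2.7) and Kcnn1 (2.68). Tumour 2 also had the highest sums of Purkinje (25365.3), interneuron (4296) and differentiated granule neuron markers (25528.2), and the highest Calb1 (3812.1) and Gabra6 (4620.9). Gad1, which is in both the Purkinje and the interneuron list, gave 3038.4 of that interneuron sum. The other tumours had Purkinje sums of 5071.8 to 14816.7. Tumour 2 was the highest in the astrocyte and Bergmann glia sum too (45536.5, at most 37790.4 in the others). For markers of neuronal maturation it had 32744.7, below tumour 5 (32899.5). The part of those cells in the spread was not tested. Without tumour 2 the counts were 2 higher and 29 lower against GNPC, with a median of -1.29, and 3 higher and 33 lower against DBS, with a median of -1.60. Of all 12270 genes, 844 were then higher and 1821 lower against GNPC, and 1934 higher and 2620 lower against DBS.

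**Figure D5:**
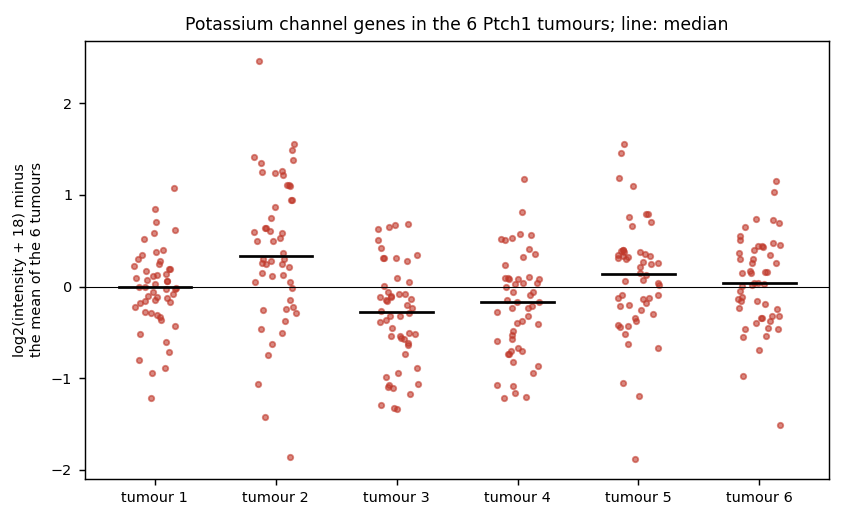
Log2(intensity + 18) of each of the 52 genes in each tumour minus the mean of the 6 tumours; points are genes and the line is their median. The median is highest in tumour 2, at 0.33, and lowest in tumour 3, at -0.27.

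Genes that work with these channels were described from lists of potassium handling. Of 11 partners of Kv4 and Kv1 channels past the filter, 7 were called lower in tumours than in GNPC and 7 lower than in DBS, with 1 higher than in DBS. Dpp6 and Dpp10, which speed Kv4 gating, were lower, at -2.25 and -2.20 against GNPC and -3.0 and -4.15 against DBS. Cntnap2 and Dlg2, which cluster Kv1 channels, were lower, at -2.14 and -2.57 against GNPC and -4.12 and -2.46 against DBS, as was Lgi1, a secreted partner of Kv1 channels, at -2.53 and -3.31. Cntn2, an adhesion protein of axons, was lower than in GNPC (-1.08) and higher than in DBS (1.73). Of 6 genes of the sodium-potassium pump, which restores the gradient, 4 were lower in each comparison, among them Atp1b1 (-2.63 and -3.31) and Fxyd7 (-1.99 and -4.06). Of 4 cotransporters, Slc12a5, the chloride extruder of mature neurons, was lower (-3.83 and -5.22), with 99.7 to 2236.6 in tumours, 4762.6 to 8363.4 in GNPC and 14488.8 to 19695.1 in DBS. Of 2 HCN genes, Hcn3 was lower than in DBS (-2.47) and not called against GNPC (0.05). Tmem38a, a channel of intracellular stores, and Abcc8, a subunit of ATP-sensitive channels, were called lower than in GNPC alone (-1.08 and -1.0). The 3 measured gamma subunits of BK channels did not pass the filter.

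Of the 31 potassium channel genes below the filter, 26 did not exceed the array median in any of the 13 arrays and 5 did so in 1 or 2. Their highest value was 175.1, for the leak channel Kcnk12 in GNPC 3. Inward rectifiers (7 genes), two-pore channels (7) and modifier subunits (6) made up most of them, Kcnj2, Kcnj4 and Kcnk5 among them. They were tested only when no filter was set, and then 1 of all 83 genes was called higher and 32 lower in tumours than in GNPC, beside 4.69% higher and 10.3% lower of all 18193 genes. Against DBS, 3 were higher and 32 lower, beside 10.9% higher and 15.9% lower. Dim signal on these probe sets does not show that the genes were silent.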

How the data were processed

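RNA of 13 mouse samples was hybridised to 1 Affymetrix array each, after amplification in 2 cycles per the labels' protocols. Values were deposited as intensity on a linear scale, and MAS5 is named, per the submitters' processing notes, without a version. Trimming 2% of values at either end leaves every array with a mean of 500, so the authors' scaling is global. Detection calls were not used here.

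The source names gave the groups. Ctnnb1 tumours, which the series design mentions, were not analysed here. Samples were numbered in accession order, which pairs none of them. No batch is named in the labels, and any batch cannot be told apart from the group.

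Of 45037 probe sets that are not controls, 34945 carried 1 gene symbol, and a gene was represented by its brightest probe set past the filter, leaving 12270 genes. Values were tested as log2(intensity + 18), 18 being the 20th percentile of all values. One limma model (limma 3.58.1, R 4.3.3) was fitted to all 13 samples with a mean per group and an intensity trend. A call needed an adjusted p under 0.05 and a difference of at least 2-fold. The fit was tested on simulated data.

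The potassium channel genes and the lists of markers and partners were chosen with earlier results of these data known. Sample values are given for the 12, 12 and 6 called genes with the largest differences in the comparisons of MB with GNPC, MB with DBS and GNPC with DBS. Alternatives changed scaling, pseudocount, filter, probe set rule, samples fitted and call threshold, and left out each sample. Counting only genes above the array median in both groups compared was chosen after seeing the data.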

Additional observations from a re-analysis of the deposited data

Results flagged for a closer look

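In each group of 4 or 6 samples, a sample was singled out when its gap to the nearest other sample was large for the group's range (Dixon's criterion). Of 104 sets of values (52 genes in tumours and in DBS), 7 held such a sample, and chance alone gives about 1 in 20, or 5.2 sets. In tumours, Kcnip2 was low in tumour 4, at 9.4, with 27.3 to 41.3 in the others. Kcnj6, a G-protein-gated inward rectifier, was low in tumour 2, at 37.1, with 123.8 to 194 in the others. Kcnt1 was high in tumour 2, at 154, with 36.8 to 59.9 in the others. In DBS, sample 2 was low for Kcne1l (97.9, others 262.5 to 289.6) and for Kcnmb4 (533.3, others 1002.3 to 1112.2), and high for Kcns2, a modifier subunit (1423.1, others 1227.6 to 1253.5). Kcnj10 was high in DBS 4, at 1076.5, with 776.2 to 815.3 in the others. DBS 2, which holds 3 of these 7, also had the highest log2 ratio of 3' to 5' control probe sets, at 2.43, with 1.23 to 1.7 in the other DBS samples. The part of RNA quality in its values, and in the calls of Kcnj11 and Kcne1l that were lost without it, was not tested.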

How the results depend on the processing

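No paired analysis was possible because the labels give no replicate numbers shared between groups. Counts of potassium channel genes called higher in tumours than in GNPC, 1 as reported, were 3 with arrays scaled to the same median, with quantile normalization, with a pseudocount of 1, with every probe set counted and by adjusted p alone, and 0 with a pseudocount of 100 or a filter of 6 arrays. For all genes, 809 higher as reported, these settings gave 1309, 943, 864, 1269 of 21628 probe sets and 2802, then 548 and 737 of 11363. Potassium channel genes called lower, 29, were 19 with a pseudocount of 100, while all genes called lower went from 1743 to 1210 of 12270. With every probe set counted they were 50 of 89 probe sets, beside 2734 of all 21628. Against DBS, 3 higher became 5 probe sets, or 5 genes by adjusted p alone, and 31 lower became 54 probe sets. For all genes there, 1896 higher became 3482 probe sets, or 4287 genes by adjusted p alone, and 2561 lower became 4013 probe sets. Between GNPC and DBS, 7 higher became 12 probe sets, and 14 lower became 9 with a filter of 6 arrays. For all genes in that comparison, 1071 higher became 1971 probe sets, and 1188 lower became 909 of 11363. Medians were -0.71 against GNPC and -1.04 against DBS with a pseudocount of 100, and -0.50, -0.72 and -0.25 in the 3 comparisons with no filter, where 83 genes were tested. With the mean of its probe sets, Kcnq5 against DBS reversed to -0.40, its other 2 probe sets being lower there. Over genes above the array median in both groups compared, counts became 0 of 38 higher against GNPC, beside 5.84% of all genes so restricted. For GNPC against DBS, 9 of 44 were lower, beside 8.21%. Leaving out 1 sample gave, for tumours against GNPC, 1 to 3 higher, 24 to 30 lower and a median of -1.29 to -1.01. Both 3 higher and 24 lower came without GNPC 1. For tumours against DBS it gave 2 to 3 higher, 28 to 33 lower and a median of -1.60 to -1.39, and for GNPC against DBS 5 to 8 higher, 12 to 15 lower and -0.73 to -0.42. Over all 12270 genes, leaving out 1 sample gave 707 to 844 higher and 1579 to 1821 lower for tumours against GNPC. The lowest of both, 707 and 1579, came without GNPC 1. Against DBS, tumours had 1819 to 1955 higher and 2534 to 2620 lower, and GNPC 974 to 1124 and 1022 to 1246. Median scaling moved the median of all genes between tumours and GNPC to 0.21, as against -0.03, and between tumours and DBS to 0.12, as against 0. Calls of all genes against GNPC then were 48.8% higher, as against 31.7%, and 3 potassium channel genes were higher and 23 lower, with a median of -0.98. Of the called genes, 18 of 30, 28 of 34 and 15 of 21 kept their call under every alternative that tested them. These are for tumours against GNPC, tumours against DBS and GNPC against DBS. Some alternatives left genes out, as the filter of 6 arrays did Kcna4, Kcna5, Kcnc2 and Kcnf1, and this was not counted as a lost call. A pseudocount of 100 also took Kcnc2, Kcnf1, Kcnh1 and Kcnn2 under 2-fold against GNPC (-0.92, -0.42, -0.89 and -0.93), and Kcnd1 and Kcnq5 against DBS (-0.96 and 0.92). Low signal limits the dim genes, whose values near 18 have little order.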

Other observations

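Kcnq1ot1, a non-coding RNA made antisense to Kcnq1 and known for imprinting, had 6 probe sets past the filter that did not move together. In tumours, 1 probe set was called higher than in GNPC (1.93) and than in DBS (2.77), and another was called lower (-1.07 and -1.59), by limma over all probe sets. The probe set with the highest mean gave 0.12 and 0.63 and was not called. The sequences these probe sets target were not examined here. Of the 22 potassium channel genes with more than 1 probe set past the filter, 17 were called in tumours against GNPC on the probe set with the highest mean. In 11 of these every probe set was called in the same direction. For tumours against DBS the numbers were 13 of 16, and for GNPC against DBS 3 of 10. Genes called only on another probe set, such as Kcnq1ot1, are not in these counts.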
